A study of Mus musculus with 20 samples.

Results

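The Wnt signalling genes described here were 10 genes chosen by name, the ligands Wnt4, Wnt5a, Wnt5b and Wnt7b, the secreted inhibitors Sfrp1, Sfrp2, Dkk3 and Wif1, the feedback target Axin2 and the nuclear factor Lef1. Every array probe that carried one of these names was taken, which gave 14 of 41174 probes. RNA of whole trachea was hybridised to 20 one-colour arrays, 5 from each of 4 groups, uninjured wild-type (C57/Bl6), injured wild-type, uninjured Myd88 KO (Myd88KO) and injured Myd88KO mice. All mice were labelled 4 months old. Injured mice had received 2% polidocanol, a detergent that strips the airway epithelium, 3 days before collection, and control mice were not exposed to it. The Myd88KO mice lacked the adaptor of most Toll-like receptors in every tissue and were bred KO to KO, with the wild-type mice kept as a separate colony, so genotype and colony cannot be told apart. Both sexes were used in the study, and the labels do not give the sex of each mouse. The questions were which of these genes differed after injury, which differed with genotype, and whether the injury response differed with genotype.

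Wnt proteins are secreted lipid-modified ligands that bind Frizzled receptors and Lrp co-receptors. In the canonical branch this stabilises beta-catenin, which enters the nucleus and acts with Tcf and Lef factors on target genes, among them Axin2 and Lef1 themselves. Sfrp and Wif1 proteins bind Wnt ligands outside the cell, and Wnt5a and Wnt5b are best known for signalling that does not use beta-catenin. In the airway, Lef1 is required for submucosal gland development, Wnt4 and Wnt7b are made by epithelium, and Wnt5a is made largely by mesenchyme.

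The promoters of a few target genes are shown because the array measures the transcripts they start, and because Tcf and Lef factors bind a short core in such DNA. The 250 bases before the transcription start were read from RefSeq promoters (GRCm38.p6) and searched on both strands for 4 heptamers that are variants of 1 core and share their first 5 letters. One was CTTTGAA, the next was CTTTGAT, another was CTTTGTA, and the last was CTTTGTT. Of 32851 promoters in the table, 14.8% held at least 1 of them. Promoters were listed for 6 of the 10 genes (Wnt4, Wnt5b, Sfrp2, Wif1, Axin2 and Lef1), and 2 of their 11 listed promoters held a match, 1 of the 4 of Lef1 and 1 of the 3 of Wnt5b. Axin2 and Lef1 (its start furthest upstream) are given with Sp5 and Wnt11 (its start furthest upstream), the target and the ligand outside the 10 genes whose differences are described last. Sequences run 5′ to 3′ toward the start in lower case, with matches in capitals.
Axin2, chr11:108920099-108920348, plus strand: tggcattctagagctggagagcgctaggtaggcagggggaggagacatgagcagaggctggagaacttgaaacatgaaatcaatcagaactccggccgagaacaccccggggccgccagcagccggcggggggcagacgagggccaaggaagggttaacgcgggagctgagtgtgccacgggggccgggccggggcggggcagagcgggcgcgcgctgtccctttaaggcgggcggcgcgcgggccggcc
Lef1, chr3:131110047-131110296, plus strand: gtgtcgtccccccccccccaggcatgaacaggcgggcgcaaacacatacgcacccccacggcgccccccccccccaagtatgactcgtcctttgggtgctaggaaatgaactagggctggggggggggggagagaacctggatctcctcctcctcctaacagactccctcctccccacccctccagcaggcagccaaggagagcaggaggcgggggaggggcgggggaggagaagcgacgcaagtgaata
Sp5, chr2:70474673-70474922, plus strand: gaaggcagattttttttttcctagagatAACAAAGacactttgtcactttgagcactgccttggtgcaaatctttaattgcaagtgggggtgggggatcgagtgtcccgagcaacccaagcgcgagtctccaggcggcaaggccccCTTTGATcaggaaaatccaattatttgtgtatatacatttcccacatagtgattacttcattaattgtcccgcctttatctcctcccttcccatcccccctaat
Wnt11, chr7:98834862-98835111, plus strand: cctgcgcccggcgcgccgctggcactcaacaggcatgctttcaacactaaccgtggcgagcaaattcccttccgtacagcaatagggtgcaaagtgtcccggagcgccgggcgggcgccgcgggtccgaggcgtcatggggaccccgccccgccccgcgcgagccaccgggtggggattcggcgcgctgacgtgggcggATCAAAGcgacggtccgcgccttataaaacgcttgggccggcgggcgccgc
The Sp5 window held 2 matches, CTTTGTT on the opposite strand at 222 to 216 bases and CTTTGAT on the gene's own strand at 104 to 98 bases before the start. The Wnt11 window held 1, CTTTGAT on the opposite strand at 51 to 45 bases, and neither the Axin2 nor this Lef1 window held one.

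Levels are log2 spot intensities minus the log2 of the array's own 75th percentile, so 0 is a signal at that percentile, and levels of different probes cannot be set against each other. Testing was limited to the 26064 probes that 10 or more of the 20 arrays placed well above background, and a probe was called differentially expressed at an adjusted p under 0.01 in limma. Of the 14 probes 13 were tested, at least 1 for each gene. The third Lef1 probe was well above background on 0 arrays, Wnt5a on 10 and the second Sfrp1 probe on 12, and the other 11 were on all 20. Of each gene with several probes, probe 1 is the brightest.

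The tissue check used 12 lists of marker genes, of 5 genes each. All genes of the secretory, ciliated, basal, cartilage and fibroblast lists were well above background in every group, and in such bulk samples fewer cells of a type and less RNA per cell cannot be told apart. The Myd88 probe itself was 0.22 lower (log2, SE 0.14, adjusted p = 1.00) in uninjured and 0.76 lower (SE 0.14, adjusted p = 0.00808, and 0.0171 with the slide as a block) in injured Myd88KO than in the matching wild-type tracheas, and its place relative to the deleted part is not given in the sources used here. The mean level of the secretory markers Scgb1a1, Scgb3a1, Scgb3a2, Cyp2f2 and Bpifa1 was 8.03 to 8.87 on uninjured arrays of both genotypes and 4.83 to 5.47 on injured wild-type arrays. Of the injured Myd88KO arrays, replicates 2 and 4 were at 4.79 and 5.01, and replicates 1 and 3 at 7.37 and 6.11. Replicate 5 was at 8.91, a mean of Cyp2f2, Scgb3a1 and Scgb3a2 only. Its Scgb1a1 and Bpifa1 values were left out as outliers, so that mean is not like the others. For Scgb3a2 alone, replicate 5 was at 9.01, against 8.75 to 9.55 on uninjured and 2.47 to 4.05 on injured wild-type arrays. The ranges of those wild-type groups overlapped for Cyp2f2 and Scgb3a1. Replicate 5 also had the lowest proliferation markers of the injured arrays, -2.66 against -0.27 to 0.74 on the other 9. In these markers it stood with the uninjured arrays against its label, but not in all markers. Its Col1a1 was 4.90 against 6.03 to 6.90 on uninjured arrays, and its Col2a1 1.86 against 2.67 to 3.62. It also had the most outlier spots, 192 against 69 to 113 on the other arrays. Its share of spots well above background, 57.5%, was the lowest. The injury difference of Myd88KO tracheas is given for each of the 10 genes with and without it. Uninjured wild-type replicate 3 stood apart from its group in basal (4.84 against 3.43 to 3.65) and proliferation markers (-0.62 against -2.70 to -2.04).

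None of the 10 genes was differentially expressed in any of the 5 comparisons by limma, and the methods' one-way test of 2 groups gave 0 as well in the 4 comparisons where it was run. After injury in wild-type tracheas, where 5.23% of all tested probes were called, 5 of the 13 probes (4 genes: Wnt5a, Wnt5b, Sfrp1 and Wif1) had an unadjusted p under 0.05, against 26.5% of all tested probes. The groups did not overlap for 3 of the 13 probes, against 12.5% of all. After injury in Myd88KO tracheas, where 0.364% of all tested probes were called, 6 of the 13 (5 genes: Wnt5a, Sfrp2, Wif1, Axin2 and Lef1) had an unadjusted p under 0.05 against 19.6% of all, and 1 did not overlap against 3.53% of all. Between the uninjured genotypes 0.376% of all probes were called, and 0 of the 13 had an unadjusted p under 0.05 (5.57% of all). Between the injured genotypes 0.38% were called, and 1 of the 13, Wnt5a, had an unadjusted p under 0.05 (12.5% of all). At an adjusted p under 0.05 in this fit, which held no slide term, 3 of the 13 probes (2 genes) were past the threshold after injury in wild-type tracheas (12.6% of all) and 0 in the other comparisons, against 3.27% of all after injury in Myd88KO tracheas, 0.568% between uninjured and 0.664% between injured genotypes. With the slide as a block, Wif1 after wild-type injury (adjusted p = 0.0271) was also under 0.05. So were Wnt5a (0.0382) and Axin2 (0.0438) after Myd88KO injury, and no probe passed 0.01. The share of all tested probes under 0.05 was not computed for the fit with the slide as a block. The shares above are of the fit without it, so these probes cannot be set against a background. Groups of the 2 genotypes did not overlap for 0 of the 13 probes, against 2.46% of all uninjured and 2.01% of all injured. The median difference of the 13 probes was -0.07 after injury in wild-type and -0.22 in Myd88KO tracheas, against -0.02 and -0.07 over all tested probes.

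**Figure D1:**
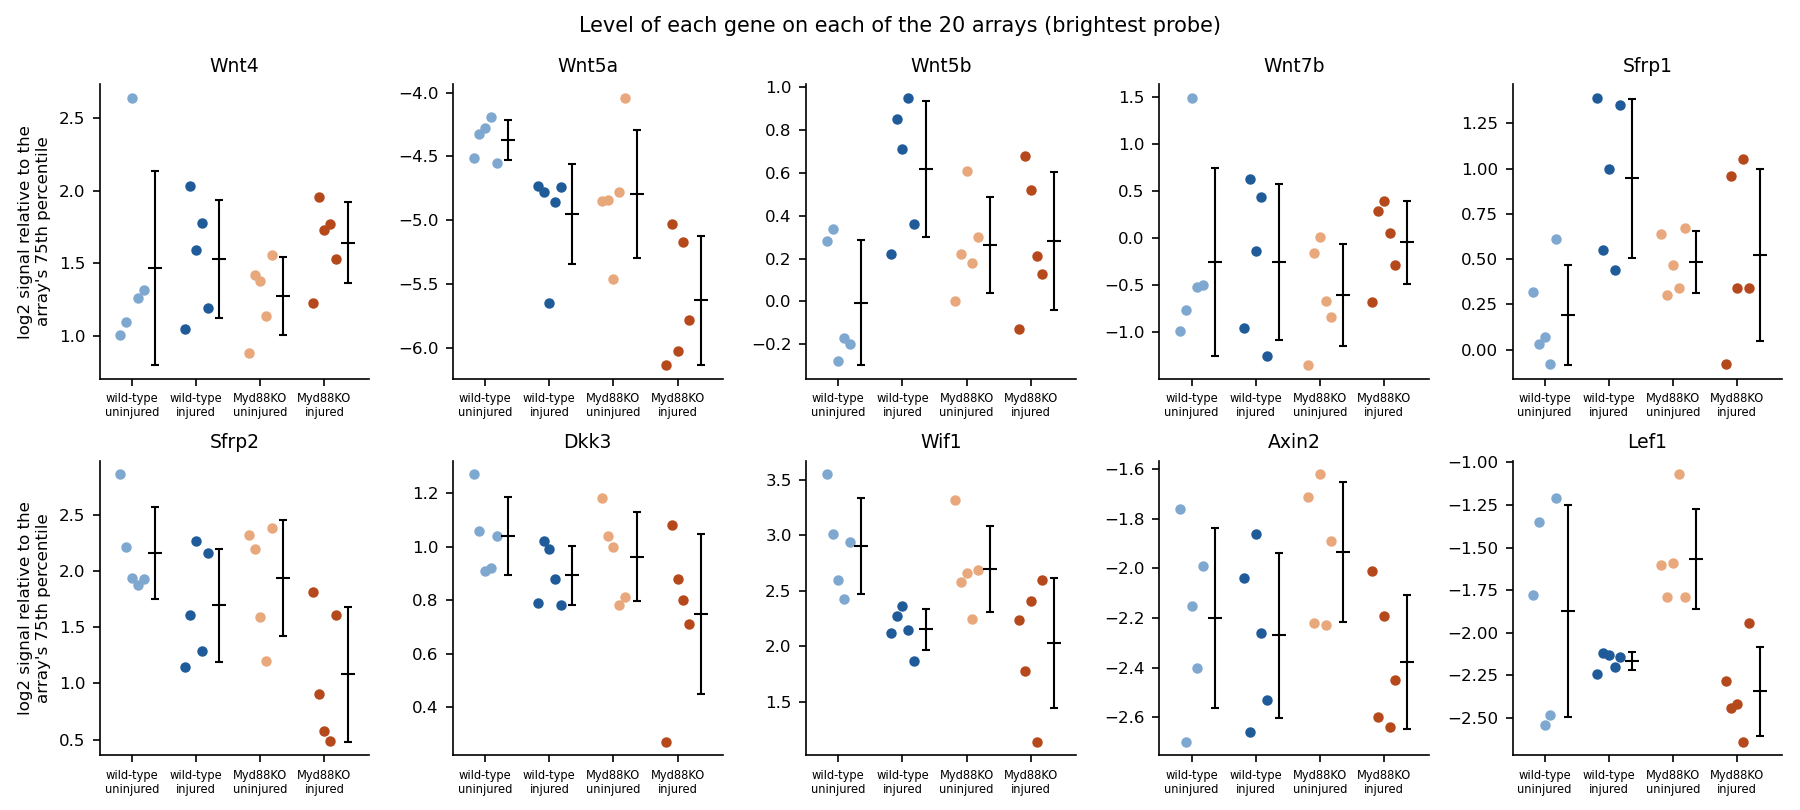
Level of each of the 10 genes (brightest probe) on every array, as log2 signal relative to the array's 75th percentile on the vertical axis, by group on the horizontal axis. Each point is 1 array, and the black bar beside it gives the mean and SD of 5 arrays. The 5 injured wild-type arrays lie below all 5 uninjured ones for Wif1 and Wnt5a, and the injured Myd88KO arrays lie below the uninjured ones for Lef1.

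Among the ligands, Wnt5b had a higher mean after injury in wild-type tracheas, at a p that did not pass the threshold of 0.01. Wnt5b probe 1 was at 0.28, 0.34, -0.28, -0.17 and -0.20 in the 5 uninjured and at 0.22, 0.85, 0.71, 0.95 and 0.36 in the 5 injured wild-type tracheas, in the order of their replicate numbers. Replicate 1 of the injured group lay within the uninjured range, and the other 4 lay above it. The difference was 0.62 (log2, SE 0.19, 1.54-fold higher, adjusted p = 0.036), and it was positive on 4 of the 5 slides, each of which held 1 array of every group. In Myd88KO tracheas the same probe was at 0.00, 0.22, 0.61, 0.18 and 0.30 uninjured and -0.13, 0.68, 0.52, 0.21 and 0.13 injured, and these ranges overlapped almost wholly (difference 0.02, SE 0.19, adjusted p = 0.967). Probe 2 of Wnt5b was 0.43 higher (SE 0.26, adjusted p = 0.304) after injury in wild-type and 0.14 higher (SE 0.26, adjusted p = 0.809) in Myd88KO tracheas. Without injured Myd88KO replicate 5 the Myd88KO differences of the 2 probes were 0.06 (adjusted p = 0.885) and 0.21 (adjusted p = 0.667). Without uninjured wild-type replicate 3, the wild-type difference of probe 1 was 0.55 (adjusted p = 0.0772).

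Wnt5a, a ligand of the non-canonical branch, had a lower mean after injury in both genotypes, at a level close to background and without passing the threshold. It was at -4.51, -4.32, -4.28, -4.19 and -4.55 in uninjured and at -4.73, -4.78, -5.65, -4.86 and -4.74 in injured wild-type tracheas, and these groups did not overlap. In Myd88KO tracheas it was at -4.85, -4.84, -5.46, -4.78 and -4.04 uninjured and -6.14, -5.03, -6.03, -5.17 and -5.78 injured, where the ranges overlapped. Only 4 and 2 of the 5 wild-type arrays and 3 and 1 of the 5 Myd88KO arrays (uninjured, then injured) were well above background. The differences were -0.58 (SE 0.25, adjusted p = 0.147) and -0.83 (SE 0.25, adjusted p = 0.0751), negative on all 5 slides in each case. With normexp background correction they were smaller, -0.26 (adjusted p = 0.35) and -0.23 (adjusted p = 0.466). Without injured Myd88KO replicate 5 the Myd88KO difference was -0.80 (adjusted p = 0.0638).

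Wnt4 and Wnt7b, both epithelial ligands, had differences with injury and genotype that were within the spread between arrays. Wnt4 was between 0.88 and 2.64 over all 20 arrays, and its group means were 1.47, 1.53, 1.27 and 1.64 in uninjured wild-type, injured wild-type, uninjured Myd88KO and injured Myd88KO tracheas. Wnt7b was between -1.35 and 1.49, with group means of -0.26, -0.25, -0.60 and -0.04. For both genes the highest of the 20 arrays was uninjured wild-type replicate 3, at 2.64 and 1.49, against 1.01 to 1.32 and -0.99 to -0.50 on the other 4 of its group. After injury in Myd88KO tracheas Wnt7b was higher on all 5 slides (difference 0.56, SE 0.43, 95% interval -0.35 to 1.47, adjusted p = 0.508). Without injured replicate 5 its difference was 0.62 (adjusted p = 0.421). For Wnt4 the difference was 0.37 (SE 0.27, adjusted p = 0.472), and 0.40 (adjusted p = 0.396) without injured replicate 5. In wild-type tracheas the Wnt7b difference was 0.00 with an interval of -0.91 to 0.91, which leaves room for a change of that size either way. Without uninjured wild-type replicate 3 it was 0.44 (SE 0.36, adjusted p = 0.453), and that of Wnt4 was 0.35 (SE 0.20, adjusted p = 0.269). The differences between the 2 injury responses were then 0.13 for Wnt7b and 0.02 for Wnt4, against 0.56 and 0.31 with all arrays.

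Among the secreted inhibitors, Sfrp1, which binds Wnt ligands outside the cell, had a higher mean after injury in wild-type tracheas on both of its probes, neither of which passed the threshold. Sfrp1 probe 1 was at 0.32, 0.03, 0.07, -0.08 and 0.61 in uninjured and at 1.39, 0.55, 1.00, 0.44 and 1.35 in injured wild-type tracheas. Injured replicate 4, at 0.44, and replicate 2, at 0.55, lay within the uninjured range and the other 3 above it. The difference was 0.76 (SE 0.23, 1.69-fold, adjusted p = 0.0323), positive on 5 of 5 slides, and with array weights the gene was called (difference 0.89, adjusted p = 0.00346). Probe 2, well above background on 1 of 5 uninjured and 5 of 5 injured wild-type arrays, was at -6.64, -5.25, -5.01, -5.84 and -4.96 and at -3.98, -4.59, -4.63, -3.44 and -4.24. These groups did not overlap (difference 1.36, SE 0.44, 2.57-fold, adjusted p = 0.0462), although with normexp background correction the difference was 0.33 (adjusted p = 0.225).

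In Myd88KO tracheas Sfrp1 probe 1 was at 0.64, 0.30, 0.47, 0.34 and 0.67 uninjured and -0.08, 0.96, 0.34, 1.05 and 0.34 injured. Replicates 2 and 4 of the injured group were above every uninjured array, replicates 3 and 5 were within the uninjured range and replicate 1 was below it, so the means differed by 0.04 (SE 0.23, adjusted p = 0.946). The high replicates 2 and 4 were those with low secretory markers. Probe 2 was 0.83 higher (SE 0.44, adjusted p = 0.307), and higher on 5 of 5 slides. Without replicate 5 the differences were 0.08 (adjusted p = 0.858) and 1.01 (adjusted p = 0.157).

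Wif1, another secreted Wnt-binding inhibitor, had a lower mean after injury in both genotypes, again without passing the threshold. It was at 3.55, 3.01, 2.60, 2.43 and 2.94 in uninjured and at 2.12, 2.27, 2.36, 2.15 and 1.87 in injured wild-type tracheas, with no overlap between the groups. The difference was -0.75 (SE 0.26, a 1.68-fold lower level, adjusted p = 0.0639), negative on 5 of 5 slides. In Myd88KO tracheas it was at 3.32, 2.58, 2.66, 2.25 and 2.69 uninjured and 2.24, 1.78, 2.41, 1.14 and 2.60 injured, with the lowest value on replicate 4 and the highest on replicate 5 of the injured group. There the difference was -0.66 (SE 0.26, adjusted p = 0.164), negative on 5 of 5 slides, and -0.81 (SE 0.26, adjusted p = 0.051) without replicate 5.

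Sfrp2 and Dkk3 had the remaining inhibitor probes. Sfrp2 lay between 1.88 and 2.86 on uninjured and 1.15 and 2.27 on injured wild-type arrays (difference -0.47, SE 0.31, adjusted p = 0.356). In Myd88KO tracheas it was at 2.32, 2.20, 1.59, 1.20 and 2.38 uninjured and 1.81, 0.91, 0.58, 0.49 and 1.61 injured, lower on 5 of 5 slides, with 3 of the 5 injured arrays below the uninjured range. That difference was -0.86 (SE 0.31, a 1.81-fold lower level, adjusted p = 0.129), and -0.99 (SE 0.32, adjusted p = 0.0492) without injured replicate 5. Dkk3, a member of the Dickkopf family whose part in Wnt signalling is less settled than that of its relatives, stayed between 0.27 and 1.27 on all arrays. After injury in Myd88KO tracheas its difference was -0.22 (SE 0.14, adjusted p = 0.422), or -0.21 (adjusted p = 0.404) without replicate 5, and injured replicate 1 was the lowest of the 20 arrays at 0.27.

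Axin2, a negative regulator that beta-catenin signalling induces, had nearly equal means with and without injury in wild-type tracheas and a lower mean in injured Myd88KO tracheas that did not pass the threshold. It was between -2.70 and -1.76 on uninjured and -2.66 and -1.86 on injured wild-type arrays (difference -0.07, SE 0.20, 95% interval -0.49 to 0.35, adjusted p = 0.866). In Myd88KO tracheas it was at -1.71, -2.22, -1.62, -2.23 and -1.89 uninjured and -2.01, -2.60, -2.19, -2.64 and -2.45 injured. The injured level was lower on 5 of 5 slides while the ranges overlapped (difference -0.44, SE 0.20, adjusted p = 0.231, and -0.42, adjusted p = 0.214, without replicate 5).

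Lef1, the nuclear partner of beta-catenin, also had a lower mean after injury in Myd88KO tracheas, at a p that did not pass the threshold. Lef1 probe 1 was at -1.60, -1.79, -1.59, -1.07 and -1.79 uninjured and at -2.28, -2.44, -2.42, -2.64 and -1.94 injured, with no overlap. The difference was -0.77 (SE 0.23, a 1.71-fold lower level, adjusted p = 0.0674), negative on 5 of 5 slides, and without injured replicate 5, the highest of its group, it was -0.88 (SE 0.24, adjusted p = 0.0223). In wild-type tracheas the same probe was at -1.78, -1.35, -2.54, -2.48 and -1.21 uninjured and at -2.24, -2.12, -2.13, -2.20 and -2.14 injured. The uninjured values spread over more than the whole injured range, so the difference of -0.29 (SE 0.23, adjusted p = 0.448) was within the spread between arrays. Probe 2 ran the same way, at -0.87 (SE 0.32, adjusted p = 0.136) in Myd88KO and -0.16 (SE 0.32, adjusted p = 0.801) in wild-type tracheas, and without injured replicate 5 its Myd88KO difference was -1.14 (SE 0.29, adjusted p = 0.0156).

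**Figure D2:**
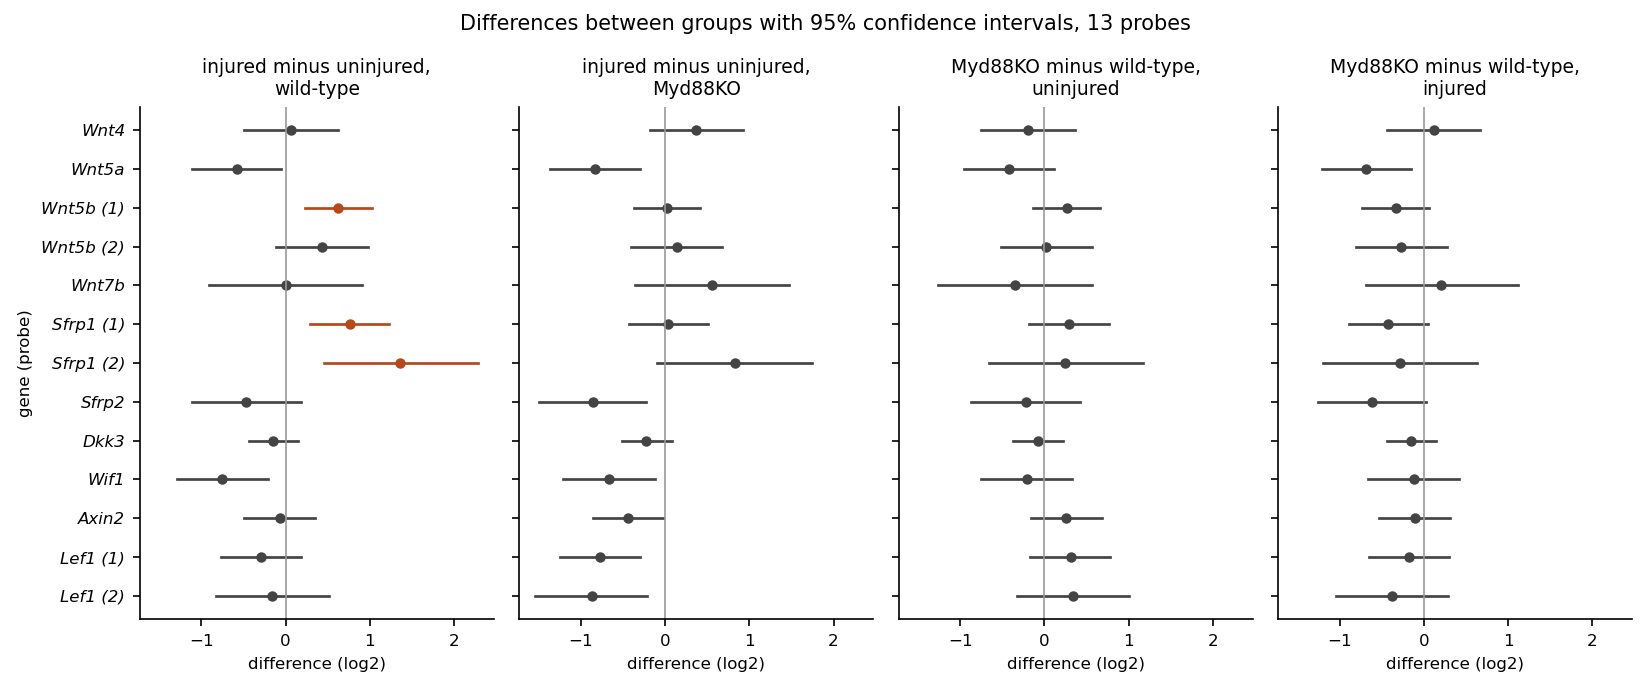
Difference between groups (log2, horizontal axis) for the 13 tested probes (vertical axis, probe number in brackets) in 4 comparisons, as the limma estimate with its 95% confidence interval over 5 arrays per group. Orange marks an adjusted p under 0.05, reached by Wnt5b probe 1 (0.62) and both Sfrp1 probes (0.76 and 1.36) after injury in wild-type tracheas, and no probe passed 0.01.

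Between uninjured genotypes the 13 differences ran from -0.42 for Wnt5a to 0.34 for Lef1 probe 2, 7 of them positive, and every adjusted p was 1.00. Sfrp1 probe 1 (0.29, SE 0.23) and Axin2 (0.26, SE 0.20) were higher in Myd88KO on 5 of 5 slides, with overlapping ranges. Between injured genotypes 11 of the 13 differences were negative, with a median of -0.27 against -0.03 over all tested probes. The 13 probes share arrays, and some share a gene, so that count carries no test. Wnt5a had a difference of -0.68 (SE 0.25, 95% interval -1.21 to -0.15, adjusted p = 0.264), lower in Myd88KO on 5 of 5 slides, which was -0.16 (adjusted p = 0.79) with normexp and -0.39 (adjusted p = 0.605) with array weights. That of Sfrp2 was -0.62 (SE 0.31, adjusted p = 0.424). Without injured Myd88KO replicate 5 the differences were -0.64 (SE 0.27, adjusted p = 0.436) for Wnt5a, -0.75 (SE 0.32, adjusted p = 0.436) for Sfrp2 and -0.65 (SE 0.29, adjusted p = 0.453) for Lef1 probe 2. Wnt5b probe 1 (-0.33, SE 0.19, adjusted p = 0.494) was also lower in injured Myd88KO on 5 of 5 slides. Marker lists differed between these groups too. The mean level of the myeloid list (4 of its 5 genes on the array) was 1.01 to 2.73 on injured wild-type and -2.50 to 1.80 on injured Myd88KO arrays, and its summed level 3.38 to 5.51 and 0.68 to 3.95. Before adjustment 4 of 4 genes were lower in Myd88KO at p under 0.05, and after it 0 were called, with a median difference of -1.40 over their probes, which without replicate 5 was -0.72 with 2 of 4 genes lower. The median was -0.78 for the fibroblast list (3 of 5 genes lower at that p, 0 called) and -0.605 for the cartilage list (2 of 5 lower, 0 called). It was 1.03 for the ciliated list (1 of 5 higher, 0 called), 0.29 for the secretory list (2 of 5 higher, 0 called) and 0.14 for the adipocyte list (1 of 5 higher, 0 called). Without replicate 5 these 5 medians were -0.73, -0.61, 0.79, 0.13 and -0.01, in that order. Genes at that p then numbered 3, 1, 0, 2 and 1. Within the 10 injured arrays Wnt5a ran with the myeloid mean at r of 0.84 (rho 0.84, permutation adjusted p = 0.058, 0.85 without 2 arrays, and 0.82 over the first scan day's 6 injured arrays). The part of these cells in the differences was not tested.

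The test of the difference between the 2 injury responses called 0 of the 13 probes, and 0 of all 26064 (0% called), with 10.2% of all at an unadjusted p under 0.05. Wnt5b probe 1 (-0.60, SE 0.27) and Sfrp1 probe 1 (-0.72, SE 0.32), each with an adjusted p of 0.473, were the 2 of the 13 with an unadjusted p under 0.05. The response was thus less positive in Myd88KO for both, on 5 of 5 slides for Wnt5b and 3 of 5 for Sfrp1. For Lef1 the difference between responses was -0.48 (SE 0.32, adjusted p = 0.605) on probe 1 and -0.72 (SE 0.45, adjusted p = 0.579) on probe 2, so a lower Lef1 after injury was not shown to be particular to Myd88KO. Without injured Myd88KO replicate 5 these were -0.58 (SE 0.33, adjusted p = 0.537) and -0.99 (SE 0.40, unadjusted p = 0.0222, adjusted p = 0.427), while Wnt5b probe 1 (-0.56, SE 0.28) and Sfrp1 probe 1 (-0.67, SE 0.33), each at an adjusted p of 0.491, had unadjusted p values of 0.0579 and 0.0583. For Axin2 it was -0.37 (SE 0.28, adjusted p = 0.652) and negative on 5 of 5 slides.

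Several of these genes varied among arrays together with cell type markers. Correlations were computed within the 10 uninjured and within the 10 injured arrays, for 120 pairs of a gene and a marker list mean and for 45 pairs of genes, with two-sided permutation tests adjusted within each family. Each set held both genotypes, and the injured set held injured Myd88KO replicate 5, so differences between groups can enter them. Leaving out that array alone was not tested. Wnt4 followed the basal cell markers Krt5, Krt14, Trp63, Krt15 and Ngfr. Within injured arrays its r was 0.91 (rho 0.89, permutation p = 0.00027, adjusted p = 0.0108, r = 0.85 without the 2 arrays of most extreme marker level), and within uninjured arrays r was 0.95 (rho 0.84, permutation p = 0.0006, adjusted p = 0.072, 0.82 without such 2). Over the arrays of each of the 2 scan days, 12 and 8, which held uninjured and injured arrays together, r was 0.88 and 0.88. Within a scan day and condition, the first day held 6 arrays of each condition, with r of 0.95 (uninjured) and 0.58 (injured), and the second held 4, too few for a correlation. For Wnt7b and the same markers r was 0.83 within injured (rho 0.77, permutation adjusted p = 0.0685) and 0.90 within uninjured arrays (rho 0.68, permutation adjusted p = 0.261), the latter resting on the most extreme arrays, since it was 0.37 without 2, and over the scan days r was 0.81 and 0.50. Over the 6 injured arrays of the first day it was -0.08, so the relation did not hold there. The summed level of the basal list (log2), with 5 of 5 genes detected, was 7.12 to 8.78, 7.23 to 8.65, 7.27 to 7.86 and 7.72 to 8.68 in uninjured wild-type, injured wild-type, uninjured Myd88KO and injured Myd88KO tracheas. Wnt4 and Wnt7b also followed each other, with r of 0.94 within injured arrays (rho 0.93, permutation adjusted p = 0.0027, and 0.013 for rho, r = 0.92 without 2 arrays) and 0.93 within uninjured arrays (rho 0.73, permutation adjusted p = 0.056, and 0.255 for rho, r = 0.47 without 2, so that it rests on those arrays). Over the scan days r was 0.97 and 0.73, and over the first day's 6 uninjured and 6 injured arrays 0.99 and 0.74. For deviations of all 20 arrays from their group means it was 0.93.

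Within injured arrays Sfrp1 ran against the ciliated cell markers Foxj1, Dnah5, Tekt1, Ccdc39 and Rsph1. Its r was -0.93 (rho -0.91, permutation p = 0.00021, adjusted p = 0.0108), -0.85 without the 2 arrays of most extreme marker level, and 0.05 within uninjured arrays (rho -0.05, permutation adjusted p = 0.974). Over all arrays of each scan day r was -0.81 and -0.98, and over the first day's 6 injured arrays -0.73. Sfrp1 also ran with the fibroblast markers Col1a1, Col1a2, Dcn, Lum and Pdgfra within injured arrays (r 0.85, rho 0.90, permutation adjusted p = 0.042, 0.72 without 2). Within uninjured arrays r was 0.24 (rho 0.38, permutation adjusted p = 0.805), over the scan days 0.46 and 0.81, and over the first day's 6 injured arrays 0.65. The uninjured and first-day values include uninjured Myd88KO replicate 3, whose Dcn value was left out as an outlier. Its fibroblast mean without Dcn was 4.25, against 5.03 to 5.76 on the other uninjured arrays, so the uninjured r cannot show that a relation was absent. The summed ciliated level (5 of 5 genes detected) was 3.90 to 5.30 and 4.49 to 4.85 in uninjured wild-type and Myd88KO tracheas, and 1.22 to 5.27 and 1.22 to 6.79 in injured ones. The summed fibroblast level (5 of 5 detected) was 8.32 to 9.05 and 7.22 to 9.03 uninjured, and 8.64 to 9.49 and 8.17 to 8.78 injured, in the same order. The 7.22 was that of uninjured Myd88KO replicate 3, summed without Dcn, so it is not like the other sums. The part of these cell types in the Sfrp1 difference was not tested.

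Wnt5b and Dkk3 followed the cartilage markers Acan, Col2a1, Col9a1, Matn1 and Chad within injured arrays. For Wnt5b r was 0.94 (rho 0.95, permutation adjusted p = 0.0108, 0.96 without 2 arrays), against 0.38 within uninjured arrays (rho 0.41, permutation adjusted p = 0.585). Over each scan day, injured and uninjured arrays together, it was 0.62 and 0.03, and over the 6 injured arrays of the first day 0.94. For Dkk3 r was 0.78 (rho 0.85, permutation adjusted p = 0.042, 0.81 without 2) within injured and 0.70 (rho 0.78, permutation adjusted p = 0.356, 0.55 without 2) within uninjured arrays, 0.70 and 0.94 over the scan days, and 0.64 over the first day's 6 injured arrays. The cartilage mean was 1.07 to 1.82, 1.01 to 1.81, 1.04 to 1.65 and 0.51 to 1.61 in uninjured wild-type, injured wild-type, uninjured Myd88KO and injured Myd88KO tracheas. Its genes did not move together. From uninjured to injured wild-type arrays Col2a1 went from 3.06 to 3.62 up to 3.85 to 4.86. Chad went from 3.71 to 4.25 down to 2.01 to 3.67, and the ranges of Acan, Col9a1 and Matn1 overlapped. For Wif1 and the secretory markers, r was 0.56 within injured arrays (rho 0.79) and 0.60 within uninjured arrays (rho 0.67), with permutation adjusted p of 0.43 and 0.454, and 0.69 and 0.80 over the scan days. The secretory mean of injured Myd88KO replicate 5 entered these without Scgb1a1 and Bpifa1. Of the other pairs of genes, Dkk3 and Wif1 ran together within uninjured arrays (r 0.89, rho 0.80, permutation adjusted p = 0.0297, and 0.255 for rho, r = 0.74 without 2 arrays) and not within injured ones (r -0.10, rho -0.10, permutation adjusted p = 0.943). For Wnt5b and Dkk3 r was 0.83 within injured arrays (rho 0.82, permutation adjusted p = 0.0218, and 0.119 for rho, r = 0.93 without 2 arrays) and 0.10 within uninjured ones (rho 0.16, permutation adjusted p = 0.908). Over the scan days r was 0.43 and 0.77 for Dkk3 with Wif1 and 0.31 and 0.18 for Wnt5b with Dkk3, and over the first day's 6 arrays of the named condition it was 0.84 and 0.54. For deviations of all 20 arrays from their group means r was 0.25 for Dkk3 with Wif1 and 0.62 for Wnt5b with Dkk3.

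**Figure D3:**
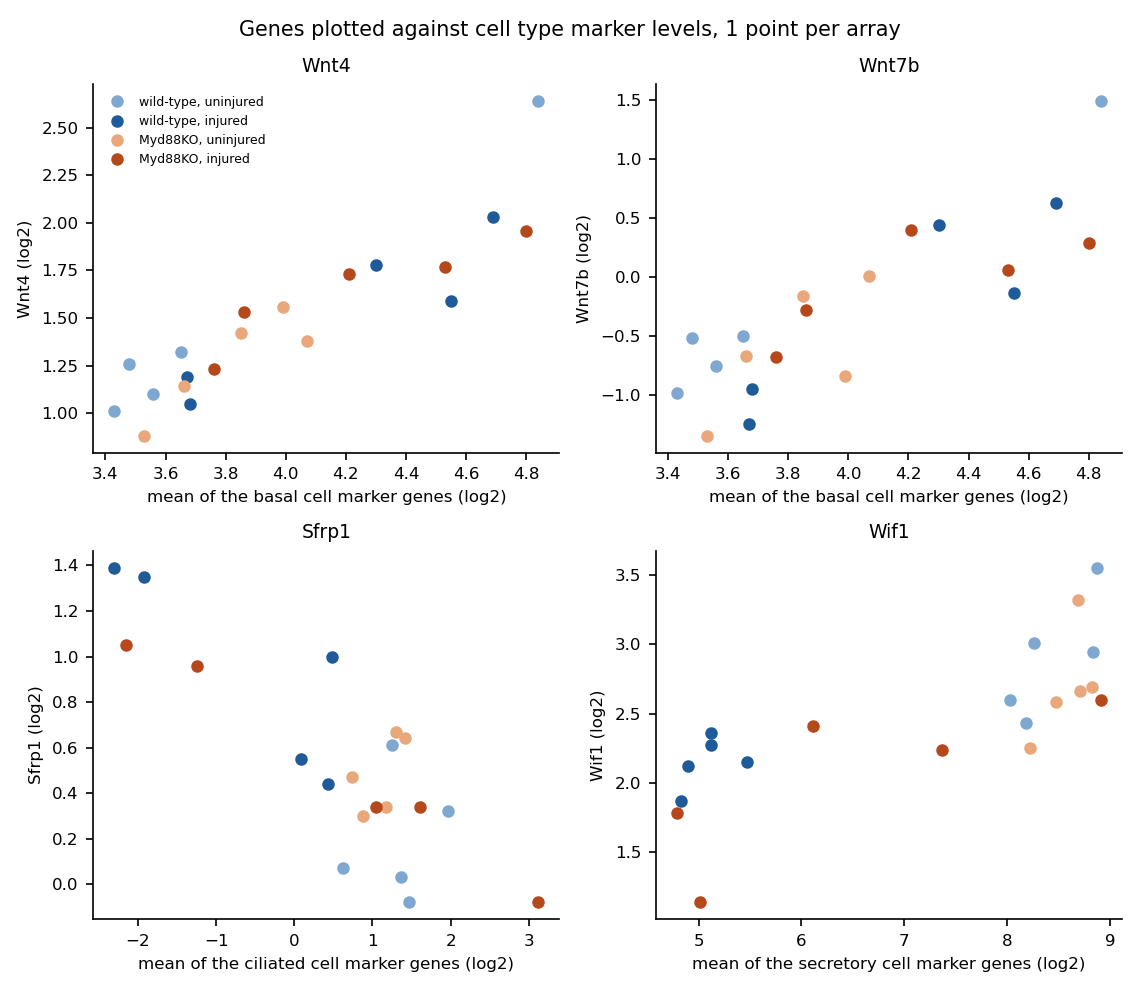
Wnt4 and Wnt7b against the mean of the basal markers, Sfrp1 against the ciliated markers and Wif1 against the secretory markers, each axis in log2 signal relative to the array's 75th percentile, 1 point per array coloured by group. Wnt4 and Wnt7b are highest on the array with the highest basal level, 4.84, an uninjured wild-type trachea, and Sfrp1 is highest on 2 injured wild-type arrays with ciliated levels of -2.30 and -1.92.

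The genes whose level over the 20 arrays was most like that of each of the 10, by Pearson r among tested probes of other named genes, were Trim29 (0.958), Evpl (0.951) and Pkp3 (0.949) for Wnt4. For Wnt7b they were both probes of Esrp2 (0.958 and 0.955) and Slc27a4 (0.954). Sfrp1 had Adcy4 (0.946), Hhipl1 (0.944) and Cdr2l (0.935), and Wif1 had Cpxm2 (0.897), Hs3st3b1 (0.873) and Dnajc12 (0.872). For Wnt5b they were Glb1 (0.883), Man2b1 (0.856) and 0610010K14Rik (0.835), and for Sfrp2 Slc16a9 (0.867), Mdk (0.866) and Col8a2 (0.859). Axin2 had Acap1 (0.878), Ica1l (0.864) and Zfp799 (0.840), and Dkk3 had Daam2 (0.844), Pcdhb10 (0.779) and Aldh1b1 (0.776). Lef1 had Lingo4 (0.829), Cd247 (0.817) and Trbv14 (0.810). The lowest values were those of Wnt5a, with Stradb (0.770), Pde9a (0.755) and Tnfaip2 (0.755). These values describe 20 arrays of 4 groups and were the highest of all tested probes, so they carry no test.

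Outside the 10 genes, 70 other genes of the pathway were listed (ligands, ligand export, receptors, the R-spondin branch, secreted inhibitors, intracellular components and targets), and 59 of them were tested with 86 probes. After injury in wild-type tracheas 0 of the 86 probes were called higher and 5, of 5 genes, were called lower. Of all tested probes 3.17% were called higher and 2.05% lower. At an unadjusted p under 0.05, 6 of the 86 were higher and 11 lower, against 26.5% of all tested probes in either direction. The median difference of the 86 was -0.02. The 5 called genes were the ligand Wnt11, the secreted Wnt deacylase Notum, the R-spondin receptor Lgr6, Porcn, the enzyme that attaches the lipid Wnt ligands need for secretion, and the receptor Fzd3. Wnt11 was at 0.42, 0.00, -0.35, -0.01 and -0.06 in uninjured and at -1.16, -1.11, -1.11, -1.05 and -1.13 in injured wild-type tracheas, a difference of -1.11 (SE 0.24, adjusted p = 0.00506). The call was lost on leaving out any of uninjured replicates 1, 2, 4 and 5 or injured replicates 1, 2, 3 and 5 of the wild-type (adjusted p up to 0.0164). In Myd88KO tracheas it was at 0.30, 0.09, 0.17, -0.01 and 0.34 uninjured and -1.03, -1.23, -1.62, -1.56 and 0.13 injured, so that replicate 5 alone of the injured arrays lay within the uninjured range (difference -1.24, SE 0.24, adjusted p = 0.0114, and 0.00996 with the slide as a block).

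Lgr6 fell by 2.06 after injury in wild-type tracheas (log2, SE 0.31, adjusted p = 0.000481), and its dimmer probe differed by -1.02 (adjusted p = 0.0546). Notum fell by 1.32 (SE 0.24, adjusted p = 0.00187), with -0.72 (adjusted p = 0.0163) on its dimmer probe, and was not called with normexp (-0.67, adjusted p = 0.0113) or by the methods' one-way test (adjusted p = 0.024). Porcn fell by 1.28 (SE 0.30, adjusted p = 0.00762), from 0.97 to 1.52 on uninjured to -0.46 to 0.69 on injured arrays, a call that was lost with the slide as a block (adjusted p = 0.0119), without the filter (0.0121), by the methods' one-way test (0.0114), and on leaving out any 1 wild-type array but injured replicate 4 or any of uninjured Myd88KO replicates 1, 2 and 4 (up to 0.0227). For Fzd3 only the probe that the array names D930050A07Rik was called (-1.07, SE 0.22, adjusted p = 0.00351), and the 2 probes named Fzd3 differed by -0.49 and -0.66 (adjusted p = 0.118 and 0.0553). The Fzd3 call was lost by the methods' one-way test (0.0197) and without wild-type uninjured replicate 4 (0.0128) or injured replicate 2 (0.0107).

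After injury in Myd88KO tracheas 0 of the 59 genes were called by limma. Without injured replicate 5 the count was 7 genes, all of them lower, where a gene counts with any of its probes called. In that fit 2.36% of all tested probes were called lower, a share of probes and not of genes. These were Wnt11 (-1.54, SE 0.15, adjusted p = 7.53e-06), Lgr6 (-1.64, adjusted p = 0.00123), the dimmer Notum probe (adjusted p = 0.00193), Fzd8 (-1.02, adjusted p = 0.00635), the ligand Wnt6 (-0.75, adjusted p = 0.00603) and the receptors Fzd5 (-0.88, adjusted p = 0.00835) and Fzd9 (-0.94, adjusted p = 0.00804). Of their 86 probes 24 were lower and 1 was higher at an unadjusted p under 0.05, against 12.4% and 7.2% of all tested probes, with all 5 arrays. Besides Wnt11, the lowest p values were those of the receptor Fzd8 (-0.98, SE 0.21, adjusted p = 0.0169), the dimmer Notum probe (-0.87, SE 0.19, adjusted p = 0.0188), Lgr6 (-1.39, SE 0.31, adjusted p = 0.0213) and the secreted inhibitor Sostdc1 (-0.91, SE 0.22, adjusted p = 0.0289).

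Between uninjured genotypes 1 of the 59 genes was called, with 1 of the 86 probes. Sp5, a transcription factor gene that beta-catenin signalling induces, was at -3.32, -3.24, -3.57, -3.64 and -2.60 in wild-type and at -2.08, -2.03, -1.39, -2.34 and -1.89 in Myd88KO tracheas, with every Myd88KO array above every wild-type array. It was 1.33 higher (SE 0.23, adjusted p = 0.00367) and higher on 5 of 5 slides, where 0.18% of all tested probes were called higher and 0.196% lower. The call was not kept with normexp background correction (0.74, adjusted p = 0.0926), in a fit of these 2 groups alone (adjusted p = 0.0159), by the methods' one-way test (adjusted p = 0.0819) or on leaving out any of wild-type replicates 1 to 4 or Myd88KO replicates 2, 3 and 5 of the uninjured mice (adjusted p 0.0106 to 0.0168). On injured arrays Sp5 was at -2.65, -2.75, -3.21, -2.84 and -2.61 in wild-type and -3.05, -2.19, -2.69, -3.17 and -2.36 in Myd88KO tracheas, and these ranges overlapped. The adipocyte list also differed between uninjured genotypes, with a mean level (5 of 5 genes detected) of 3.51 to 4.61 in wild-type and 4.96 to 5.25 in Myd88KO tracheas, without overlap, and a summed level of 7.26 to 8.06 and 8.08 to 8.73. Before adjustment 2 of its 5 genes were higher at p under 0.05, and after it 0 were called (median difference 0.66). The smooth muscle list did not overlap either, with a mean level of 4.87 to 5.20 in wild-type and 5.23 to 5.58 in Myd88KO tracheas. The 4.87, of uninjured wild-type replicate 1, lacks Tagln, so it is not like the other means. The summed level of this list was 7.85 to 8.04 and 8.18 to 8.40. Its median difference was 0.16, with 1 of 5 genes higher before adjustment and 0 after. The part of either list in the Sp5 difference was not tested. The difference between the injury responses of Sp5 was -1.21 (SE 0.32, unadjusted p = 0.00126, adjusted p = 0.394). The next lowest p values were those of Ccnd1 (-0.65, adjusted p = 0.58), Sostdc1 (0.56, adjusted p = 0.646), the dimmer Notum probe (0.45, adjusted p = 0.738) and Sfrp4 (-0.99, adjusted p = 0.789).

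Between injured genotypes 0 of the 59 genes were called by limma, with or without replicate 5, and 3 of their 86 probes were higher and 12 lower at an unadjusted p under 0.05, against 4.52% and 7.98% of all. Ccnd1, the cell cycle gene cyclin D1 and a Wnt target, was 1.02 below its wild-type level (difference -1.02, SE 0.24, adjusted p = 0.0583) with no overlap between groups. It was followed by the inhibitor Sfrp4 (-1.45, SE 0.43, adjusted p = 0.149), Fzd3 (0.71, SE 0.22, adjusted p = 0.161), Cd44 (-0.83, SE 0.26, adjusted p = 0.177) and the Dickkopf receptor gene Kremen2 (0.78, SE 0.26, adjusted p = 0.215). In the test of the difference between injury responses, Sp5 was followed by Fzd3 (0.96), Sostdc1 (-0.95), Fzd8 (-0.84) and Fzd2 (-0.70), each with an adjusted p of 0.394, and 0 of the 59 genes were called with or without replicate 5.

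**Figure D4:**
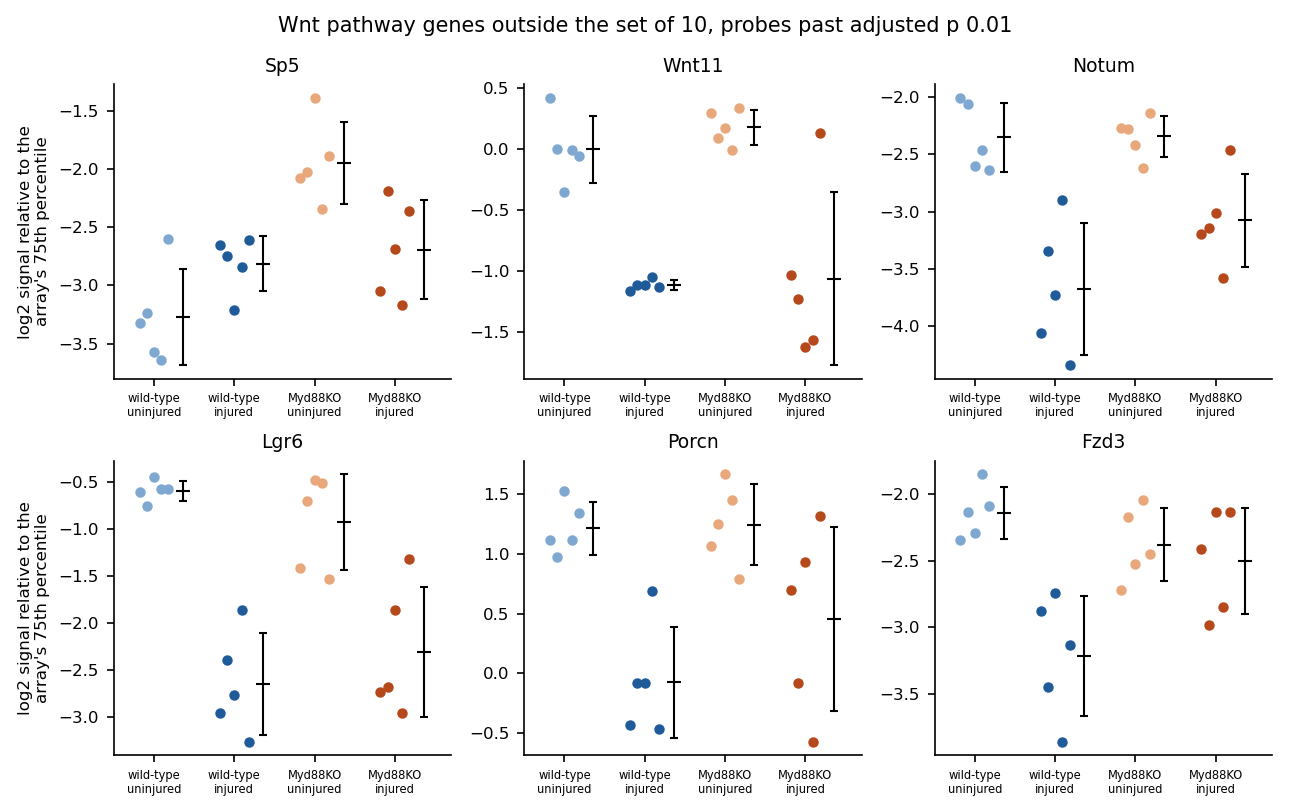
Level of the 6 pathway genes outside the 10 that were called in a comparison, as log2 signal relative to the array's 75th percentile on the vertical axis, by group. Each point is 1 array, with the mean and SD of 5 arrays beside it. Wnt11, Notum, Lgr6, Porcn and the Fzd3 probe lie lower on all 5 injured than on all 5 uninjured wild-type arrays, and Sp5 lies higher on all 5 uninjured Myd88KO than on all 5 uninjured wild-type arrays.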

How the data were processed

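RNA of 20 whole tracheas was labelled with Cy3 (600 ng per the labels) and hybridised to 1 Agilent one-colour array each. The authors deposited the intensity of each spot, after background subtraction and spatial detrending by Agilent Feature Extraction 9.5.1.1 per the file headers and without scaling between arrays, together with a value table that held the same intensity (ratio of table to scanner values 0.995 to 1.005). Samples were grouped by title.

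Control spots and outlier flags (1960 values) were left out, log2 intensity was taken minus that of each array's 75th percentile (533 to 1036 intensity units), and spots of 1 probe were averaged. On each array 57.5% to 67.8% of spots were well above background. With 5 arrays per group, their number limits the precision. Groups were compared in R 4.3.3 with limma 3.58.1 in 1 fit of all 20 arrays, with Benjamini-Hochberg adjustment over all 26064 tested probes and the threshold of 0.01 that the methods use. The code was tested on simulated data. The methods' one-way test, run on the 2 groups of a comparison, was an alternative, as were quantile normalization, normexp (offset 50), no filter, slide or scan day as a block, array weights, the value table, a threshold of 0.05 and leaving out each array. Intervals are 95% confidence intervals from limma. Correlation p-values used 100000 permutations.

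Each replicate number was 1 slide in the file headers (5 slides, each with all 4 groups), and slides were scanned on 2 days. Deviations of same-numbered uninjured wild-type and Myd88KO arrays correlated at 0.252 to 0.476, over 0.1 in 5 of 5 pairs, so slide paired these groups. The main fit held no slide term, and the slide as a block was an alternative. Leaving out injured Myd88KO replicate 5 for the other pathway genes and the marker lists, and correlations within condition and scan day, were added after seeing the data. Current names came from a RefSeq gene table of assembly GRCm38.p6, matched by accession (22951), symbol (6659) or older symbol (3109), and 8455 kept the name on the array. The genome build of the array's own probe positions is not given in the sources used here, and none are printed. Every probe of the 10 genes is reported. Of other pathway genes those called and the 5 of lowest p in each comparison are named. The 10 genes and the lists were chosen with earlier results of these data known.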

Additional observations from a re-analysis of the deposited data

Results flagged for a closer look

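In 5 of the 52 sets of 5 arrays (13 probes in 4 groups), 1 array stood further from the nearest other than the 95% critical ratio of gap to range in Dixon's test allows, and chance gives about 1 in 20 such sets. Uninjured wild-type replicate 3 stood out in both Wnt4 (2.64 against 1.01 to 1.32, ratio 0.813) and Wnt7b (1.49 against -0.99 to -0.50, ratio 0.799), and the same array had the highest basal markers of all 20. Injured wild-type replicate 3 was low in Wnt5a (-5.65 against -4.86 to -4.73, ratio 0.863). Uninjured Myd88KO replicate 1 was low in Wnt5b probe 2 (-4.05 against -3.32 to -3.09, ratio 0.764), and uninjured Myd88KO replicate 4 was high in Lef1 probe 1 (-1.07 against -1.79 to -1.59, ratio 0.728).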

How the results depend on the processing

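Of the 10 genes, 0 were called in any of the 5 comparisons under quantile normalization, normexp, no filter, the slide or scan day as a block, the value table or leaving out any 1 array, nor in the 2 groups alone or by the methods' one-way test, which were run in 4 comparisons, not for the difference between responses. The exceptions after injury in wild-type tracheas were array weights, with 1 gene (Sfrp1), and an adjusted p under 0.05, with 2 (Wnt5b and Sfrp1). The cause was not tested. Counts of all tested probes moved more. After injury in Myd88KO tracheas (95) they were 59 without the filter, 154 with the slide as replicate block, 377 with scan day as block, 2187 with array weights, 852 at 0.05, 0 in the 2 groups alone and 0 by the one-way test. After injury in wild-type tracheas (1362) they were 2105 with scan day, 2614 with array weights and 3290 at 0.05. Between uninjured genotypes (98) they were 182 with array weights, 148 at 0.05 and 47 by the one-way test, and between injured genotypes (99) they were 173 at 0.05, 37 in the 2 groups alone and 21 by the one-way test. For the difference between responses (0) they were 1 with the replicate block, 2 with scan day and 3 with array weights. On leaving out 1 array the counts were 72 to 108 (uninjured genotypes), 75 to 116 (injured genotypes), 670 to 1829 (wild-type injury), 6 to 1096 (Myd88KO injury, 1096 without injured Myd88KO replicate 5) and 0 to 3 (difference between responses).

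The replicate number was the slide in the file headers, and same-numbered arrays of different groups correlated at -0.262 to 0.476 (mean 0.189, 23 of 30 pairs over 0.1), and only the uninjured genotypes passed in every pair. The block changed no call of the 10 genes at 0.01. With it, Wif1 after wild-type injury and Wnt5a and Axin2 after Myd88KO injury fell under 0.05, where the share of all tested probes was not computed. Values that changed sign were small and none was called. With quantile normalization Wnt7b after wild-type injury was -0.01, and 0.00 with the value table. With normexp Sfrp1 probe 1 after Myd88KO injury was 0.00 and the difference between Wnt5a responses 0.02. With array weights Wnt5b probe 2 (0.04) and Sfrp1 probe 2 (0.24) between injured genotypes, Axin2 after wild-type injury (0.06) and the differences between responses of Wnt5a (0.10), Dkk3 (0.02) and Wif1 (-0.17) changed sign. On leaving out 1 array the ranges were, between uninjured genotypes, -0.31 to 0.10 for Wnt4, -0.04 to 0.20 for Wnt5b probe 2, -0.53 to 0.09 for Wnt7b and -0.02 to 0.51 for Sfrp1 probe 2. Between injured genotypes they were 0.00 to 0.24 for Wnt4, -0.03 to 0.44 for Wnt7b and -0.26 to 0.11 for Wif1. After wild-type injury they were -0.06 to 0.35 for Wnt4, -0.22 to 0.44 for Wnt7b, -0.19 to 0.04 for Axin2 and -0.37 to 0.11 for Lef1 probe 2. After Myd88KO injury they were -0.08 to 0.12 and -0.04 to 0.38 for the Wnt5b probes and -0.09 to 0.19 for Sfrp1 probe 1, and for the differences between responses -0.15 to 0.05 for Dkk3 and -0.07 to 0.31 for Wif1. Signal close to background limits Wnt5a and Sfrp1 probe 2.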
